A study of Bos taurus with 2 samples.

Results

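The genes described here mark the making of fat cells in muscle. They are 10 genes chosen by name as markers of intramuscular adipocytes and of their progenitors, out of 26714 genes or transcripts on the array. The rule that selects them uses no measured value, although they were proposed with earlier results of these data known. A probe was assigned to one of them when its transcript accession was paired with the symbol in the RefSeq gene table. This gave 25 probes for 9 of the 10 genes. No probe had an accession paired with *ADIPOQ*, which encodes the adipokine adiponectin, and *ADIPOQ* was therefore not analysed here. The table holds only predicted transcripts for it, and a gene called unmatched here or below may have probes under an accession that the table does not hold, so nothing follows about its level. The 9 genes with probes are *PDGFRA* and *ZNF423* for the progenitors, and *PPARG*, *CEBPA*, *FABP4*, *PLIN1*, *CIDEC*, *DGAT2* and *LEP* for the mature adipocytes.

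The RNA came from the *longissimus thoracis* (LT) muscle, a back muscle, of Japanese Black cattle fetuses at 8.5 months after conception (day 260 ± 8.3 of gestation). In the low-nutrition (LN) group the dams received 60% of their nutritional requirement through gestation, and in the high-nutrition (HN) group 120%. All dams were inseminated with male-sorted semen of the same sire. The RNA of 4 fetuses per group was combined into 1 pool, and the HN and LN pools were read on 1 one-color array each, so that the groups were measured once. The pooled fetuses were the heaviest of the HN group and the lightest of the LN group, so diet and the selection by body weight cannot be told apart. There was no replicate, no test and no p-value, and the errors given below are those of the array measurement and not of the animals.

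Fat cells within muscle arise mainly from fibro-adipogenic progenitors, mesenchymal cells that lie between the fibers and can become either adipocytes or fibroblasts. These cells carry PDGFRA, a receptor for platelet-derived growth factor, and the zinc finger factor ZNF423 commits them to the adipocyte lineage. PPARG and CEBPA then switch on the genes of the mature cell, which stores triglyceride in lipid droplets and secretes adipokines. In Japanese Black cattle, a breed known for marbled beef, this lineage forms the intramuscular fat, and its progenitors are laid down before birth.

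The progenitor genes and most of the lipid genes were slightly higher in the LN pool, whereas *PPARG*, *CEBPA* and *PLIN1* were slightly lower. A value could be given for 8 genes, of which 5 were higher and 3 lower in the LN pool. Among all 19554 genes with a value, 49.3% were higher and 50.7% lower. The fold threshold was set at a log2 LN/HN of 0.32 in either direction, and only *FABP4* passed it. Of all genes, 18.0% passed it (8.85% higher and 9.11% lower in LN), so that 1 gene of 8 is near the share among all genes. No member differed by more than 2-fold, against 0.997% of all genes. The median log2 LN/HN of the 8 genes was 0.17, against -0.0033 over all genes. Where dim probes were admitted, 9 members had a value, their median was 0.049 and 3 were past the threshold. Without a filter on dim probes, 12.2% of all genes were past it higher and 13.4% lower.

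The software called 18 of the 25 probes well above background on both arrays and 7 on neither, and no probe of these genes was above background on 1 array only. None of their spots was saturated or had an outlier flag. Of the 18 probes, 14 were higher in the LN pool and 4 lower, while 51.0% of all 30639 probes measured on both arrays were higher. Past the threshold were 2 of the 18 probes, both higher in LN, against 8.59% of all such probes. Probes of one gene share their target RNA and are not replicates of the diet.

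**Figure D1:**
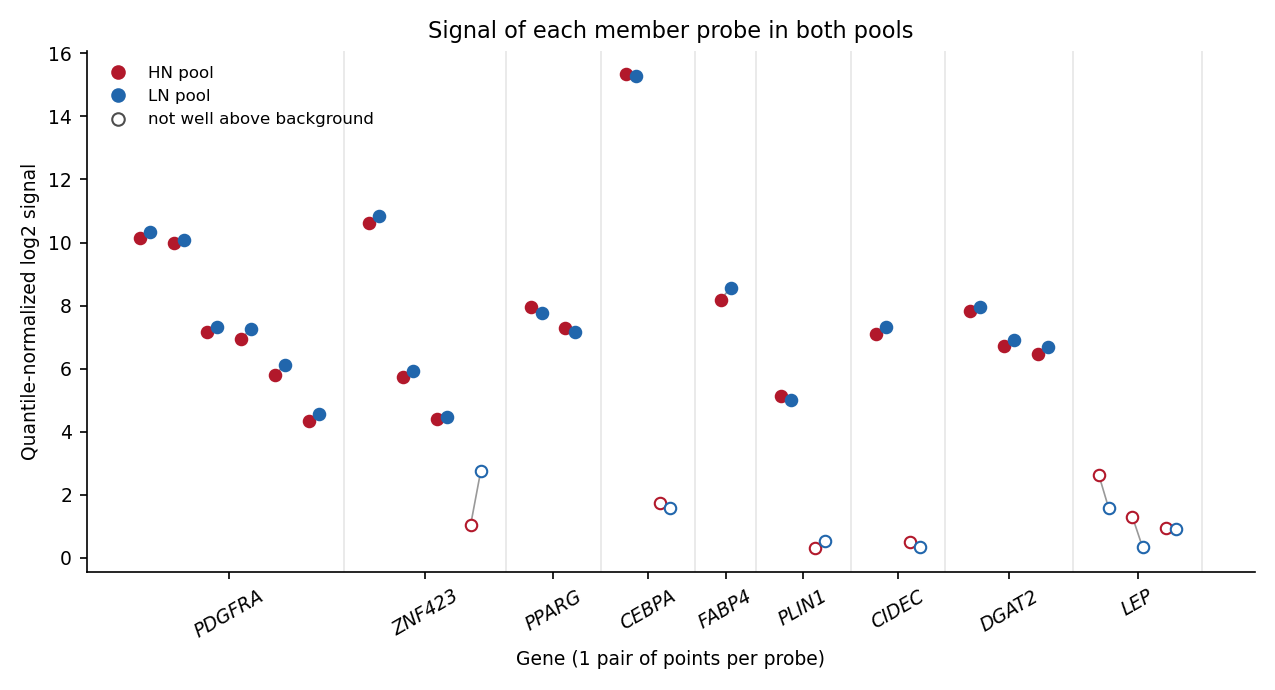
Quantile-normalized log2 signal (vertical axis) of each of the 25 probes, grouped by gene, in the HN pool (red) and the LN pool (blue), 1 array each. Filled points were well above background and open points were not. The points of each filled pair lie close together, and all 3 *LEP* probes are open in both pools.

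*PDGFRA* is the surface receptor by which fibro-adipogenic progenitors are usually recognized. Its 6 probes were all well above background on both arrays. The brightest had log2 signals of 10.13 (HN) and 10.33 (LN), and the dimmest 4.34 and 4.57. All 6 probes were higher in the LN pool, with log2 LN/HN values from 0.10 to 0.32 (SD between probes 0.082). The mean log2 LN/HN was 0.22, a 1.17-fold difference, with an error of 0.087 from the error estimates of the software. Of the 125 genes with 6 or more probes measured on both arrays, 19.2% had all probes higher and 12.0% all probes lower in LN. Among all genes, 14.9% had a log2 LN/HN at or above that of *PDGFRA*.

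*ZNF423* encodes the zinc finger factor that marks preadipocytes and raises PPARG expression in them. Of its 4 probes, 3 were well above background, with log2 signals of 10.61, 5.73 and 4.41 in HN and 10.83, 5.93 and 4.45 in LN. All 3 were higher in LN, by 0.22, 0.20 and 0.05 on the log2 scale. Among genes with exactly 3 probes measured on both arrays, 25.6% had all of them higher. The mean log2 LN/HN was 0.15, a 1.11-fold difference, with a software error of 0.13. The fourth probe was not well above background on either array, with intensities of 2.37 in HN and 6.31 in LN. When dim probes such as this one were admitted, the log2 LN/HN of *ZNF423* was 0.54.

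*PPARG* encodes the nuclear receptor that is the main switch of adipocyte differentiation. Its 2 probes had log2 signals of 7.94 and 7.30 in HN and 7.76 and 7.18 in LN. Both were lower in LN, by -0.18 and -0.12, and the mean log2 LN/HN was -0.15 (0.90-fold), about as large as its software error of 0.14. Among genes with exactly 2 probes measured on both arrays, 34.3% had both lower in LN. *PPARG* was thus opposite in direction to *PDGFRA* and *ZNF423*, but none of these genes passed the threshold. Of all genes, 45.9% moved at least as much in either direction as *PPARG*, 45.6% as *ZNF423* and 30.5% as *PDGFRA*.

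*CEBPA* encodes the transcription factor that sustains PPARG expression in the adipocyte. It is also expressed in other cells, among them liver and myeloid cells. Its detected probe read 15.33 (HN) and 15.29 (LN) as log2 signals. The log2 LN/HN was -0.04, smaller in size than the SD of 0.085 found between spots of the same probe on these arrays. It was -0.10, larger than that SD, with the 75th percentile subtracted, after the normexp correction and with dim probes admitted. Its other probe was not well above background on either array (intensities of 3.76 and 2.65), so the value rests on 1 probe and the probes disagree on detection.

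*FABP4* encodes the fatty acid binding protein of adipocytes, a target of PPARG. Its single probe read 8.18 (HN) and 8.57 (LN) as log2 signals, from intensities of 288.5 and 383.5. The log2 LN/HN was 0.39, a 1.31-fold difference, with a software error of 0.20. It was past the threshold under all 12 alternative settings, between 0.36 and 0.41. With 1 probe, well above background on both arrays, it could move only with the other scalings, the normexp correction and the authors' values. Of all genes, 6.39% had a log2 LN/HN at or above that of *FABP4*. *FABP4* is also expressed by capillary endothelial cells and macrophages. Of 5 endothelial markers, 4 were lower in the LN pool (median log2 LN/HN -0.19), and all 4 macrophage markers with a value were lower (median -0.18, which was -0.07 after the normexp background correction and -0.30 with dim probes admitted). The part of these cells in the *FABP4* signal was not tested.

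The lipid droplet genes did not move one way. *PLIN1* encodes perilipin, the coat protein of the large droplets of adipocytes. Its detected probe read 5.14 (HN) and 5.00 (LN) as log2 signals, and its log2 LN/HN was -0.14 with a software error of 0.22. Its second probe was not above background on either array, and with that probe admitted the direction turned, to 0.05. *CIDEC* encodes a protein that fuses droplets into larger ones. Its detected probe read 7.09 (HN) and 7.31 (LN) as log2 signals, and its log2 LN/HN was 0.22 with a software error of 0.20. Its second probe was not well above background (intensities of 1.31 and 1.40), and with it admitted the value was 0.02.

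*DGAT2* encodes an enzyme of the last step of triglyceride synthesis. Its 3 probes had log2 signals of 7.83, 6.72 and 6.47 in HN and 7.94, 6.90 and 6.70 in LN. All 3 were higher in LN, and the mean log2 LN/HN was 0.18, a 1.13-fold difference, with a software error of 0.12. Of the 1888 genes with exactly 3 probes measured on both arrays, 25.6% had all of them higher in LN.

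*LEP* encodes leptin, the adipokine that signals the amount of stored fat. None of its 3 probes was well above background in either pool. The intensities were 6.72, 2.87 and 2.07 in HN and 2.61, 1.40 and 1.74 in LN, so no fold was computed. *LEP* was the only adipokine of the 10 genes that could be examined, since *ADIPOQ* was unmatched. All 10 muscle fiber markers were detected in both pools. In RNA of whole muscle, fewer cells of a type and less RNA per cell cannot be told apart.

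**Figure D2:**
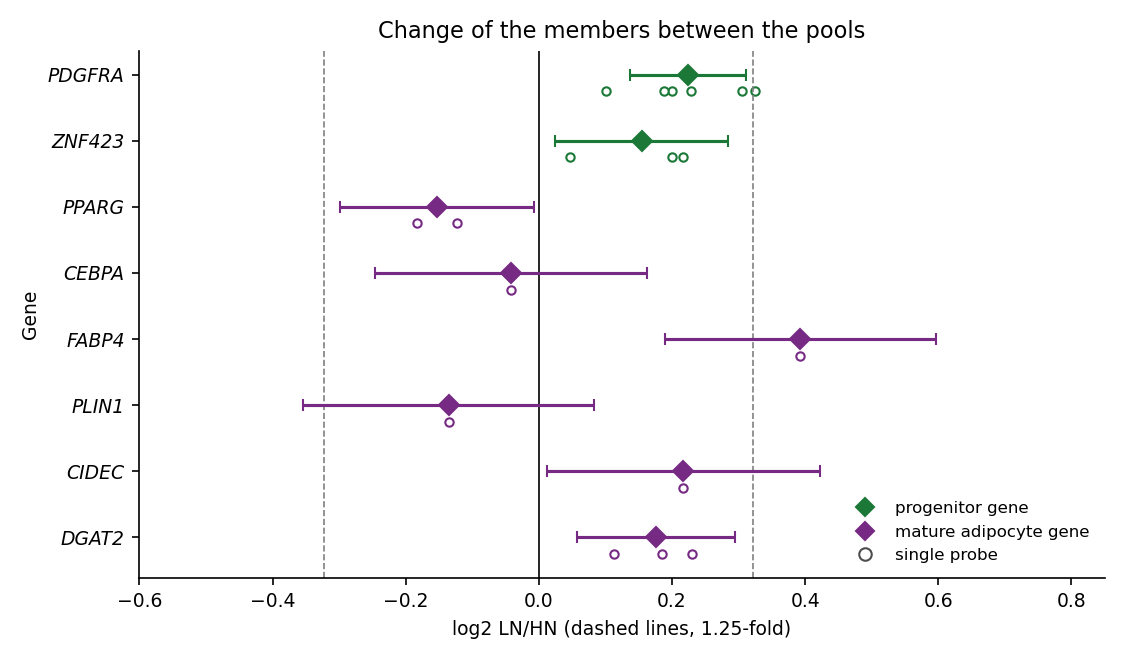
Log2 LN/HN (horizontal axis) of the 8 genes with a value. Diamonds are means over detected probes, open circles the single probes, and bars the error from the estimates of the software, taken as independent between probes. *FABP4* alone lies beyond the dashed line of the threshold, and the bar of 2 genes, *CEBPA* and *PLIN1*, crosses 0.

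The progenitor genes were set against the mature adipocyte genes. The median log2 LN/HN was 0.19 for *PDGFRA* and *ZNF423* and 0.067 for the 6 mature adipocyte genes with a value, a difference of 0.12. The 6 mature genes ranged from -0.15 for *PPARG* to 0.39 for *FABP4*, and both progenitor genes lay within that range. The difference between the medians was between 0.098 and 0.36 over the alternative settings. With 1 array per group it has no test.

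Further genes of the same lineage were taken from hand-written lists. Of 16 other genes of fibro-adipogenic progenitors and preadipocytes, 15 had a value, and 13 of these were higher in LN. Their median log2 LN/HN was 0.30. Past the threshold were 7 genes higher and none lower, against 8.85% and 9.11% of all genes. Without a filter on dim probes the median was 0.18. There were then 6 genes past the threshold higher and 2 lower, against 12.2% and 13.4% of all genes. *PDGFRB*, the second receptor for platelet-derived growth factor, had a log2 LN/HN of 0.49, but its 3 probes ranged from 0.06 to 0.85 and include a limit from a dim signal. *OSR1*, a transcription factor of fibro-adipogenic progenitors in the embryo and after injury, had a log2 signal of 10.09 in HN and 10.52 in LN (log2 LN/HN 0.43, from 1 of its 2 probes). *MFAP5*, a protein of microfibrils, had a log2 LN/HN of 0.42 with all 3 probes higher (0.34 to 0.52). *PI16*, which marks an early mesenchymal progenitor, had a log2 LN/HN of 0.38, and *CD55*, found on the same cells, of 0.37 from 1 of its 2 probes. The others past the threshold were named after their values had been seen. They are *LUM*, a proteoglycan of the matrix (0.35), and *DLK1*, which is expressed in preadipocytes and holds back their differentiation (0.34, with 5 probes from 0.25 to 0.42). The log2 signals of *DLK1* were 13.37 (HN) and 13.71 (LN), against means of 7.39 and 7.615 for *PDGFRA*. Which cells gave the *DLK1* signal was not tested. After the normexp background correction the median of the list was 0.14, with 4 genes past the threshold higher, beside 1.62% of all genes.

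The exceptions were *ENG* (-0.13), which is also an endothelial gene, and *THY1* (-0.04). The probes of *CD34* did not move together, at -0.21 and 0.81, nor did those of *NT5E* (-0.56 to 0.71) and *DPP4* (-0.45 to 0.59). *TCF21* was not detected. Matrix genes of fibroblasts moved with this list. All 4 with a value were higher in the LN pool, namely *COL1A2* (log2 LN/HN 0.42), *COL1A1* (0.34), *COL3A1* (0.33) and *FBN1* (0.26), and *COL6A3* had no matched probe. Their part in the result of the progenitor list was not tested. Of 5 pericyte and smooth muscle markers, which surround vessels, 4 were lower in LN (median -0.33), and muscle fiber markers had a median of -0.18 (-0.05 where a gene was read from its brightest probe).

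Among 14 other adipogenic transcription factors with a value, 7 were higher and 7 lower in the LN pool, with a median log2 LN/HN of -0.0032. *CEBPG* (1.06) and *KLF15* (0.61, from 1 of its 2 probes) passed the threshold upward and *STAT5B* (-0.34) downward. CEBPG is a partner of C/EBP factors that also acts in the amino acid response, KLF15 is induced by glucocorticoids in muscle and fat, and STAT5B transmits growth hormone signals. The early factors *CEBPB* (-0.04) and *CEBPD* (-0.09) and the lipogenic factor *SREBF1* (0.02) were close to 0. *RXRA*, whose product is the binding partner of PPARG, and *ZNF467* had no matched probe, so the counts of this list leave them out. Of 9 inhibitors of adipogenesis with a value, 4 were higher and 5 lower (median -0.087). Past the threshold were *DDIT3*, a stress factor that blocks C/EBP proteins (0.87), *WNT5A*, a Wnt ligand (0.43), and *HES1*, a target of Notch (-0.42). *WNT10B*, *KLF2* and *RUNX1T1* had no matched probe.

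Of 31 other genes of lipid synthesis and droplets with a value, 13 were higher and 18 lower in the LN pool, with a median log2 LN/HN of -0.17. Past the threshold there were 5 higher and 7 lower, beside 8.85% and 9.11% of all genes. Of the 5 largest differences, those toward higher values in LN were in *SLC2A4*, the insulin-regulated glucose transporter (0.54, with probes from 0.21 to 1.09), in *PLIN2*, a droplet coat protein of many cell types (0.54), and *ELOVL6*, an enzyme that elongates fatty acids (0.48, with 4 probes from 0.23 to 0.76). Those toward lower values were in *MGLL*, a lipase of monoglycerides (-0.50), and in *PCK1*, which supplies the glycerol backbone of triglycerides in fat cells (-0.49, from 1 of its 3 probes, the others not being detected). The others past the threshold were *ACACA* (0.39, from 2 of its 3 probes) and *SCD* (0.34), both higher. Lower were *TRARG1* (-0.47, from 1 of its 2 probes), *FITM2* (-0.38), *BSCL2* (-0.36), *CIDEB* (-0.335) and *PLIN5* (-0.33). The list joins genes of lipid synthesis with genes of storage and breakdown, so its median does not stand for synthesis alone. After the normexp background correction the median of the list was -0.05. There were then 2 genes past the threshold higher and 1 lower, beside 1.62% and 1.96% of all genes. The median was -0.09 without a filter on dim probes and -0.10 from the brightest probes. With the 75th percentile subtracted, 4 genes were past the threshold higher and 10 lower, and the shares of all genes moved to 6.0% and 13.6%. Skeletal muscle expresses many genes of this list as well, *PLIN5* and *SLC2A4* among them. *FASN* and *PLIN4* had no matched probe.

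The median of 9 adipokines and adipokine receptors with a value was 0.10, with 6 higher and 3 lower. Only *RETN*, which encodes resistin, was past the threshold (0.70), and its 2 probes gave 0.06 and 1.34. Neither *LEPR*, the leptin receptor, with 4 probes, nor *ITLN1* was detected. Of 10 brown and beige adipocyte genes, 4 had a value and none of these was past the threshold. *UCP1*, the uncoupling protein that defines brown fat, was not detected by either of its 2 probes, nor were *ELOVL3*, *TMEM26* and *TNFRSF9*, and *PRDM16* and *TBX1* had no matched probe. The genes with a value were *PPARGC1A* (0.24), *COX8B* (-0.06), *COX7A1* (-0.11) and *DIO2* (-0.26). The log2 signals of *DIO2* were low, at 3.87 (HN) and 3.61 (LN). Muscle fibers also express genes of this list, *PPARGC1A*, *COX8B* and *COX7A1* among them.

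**Figure D3:**
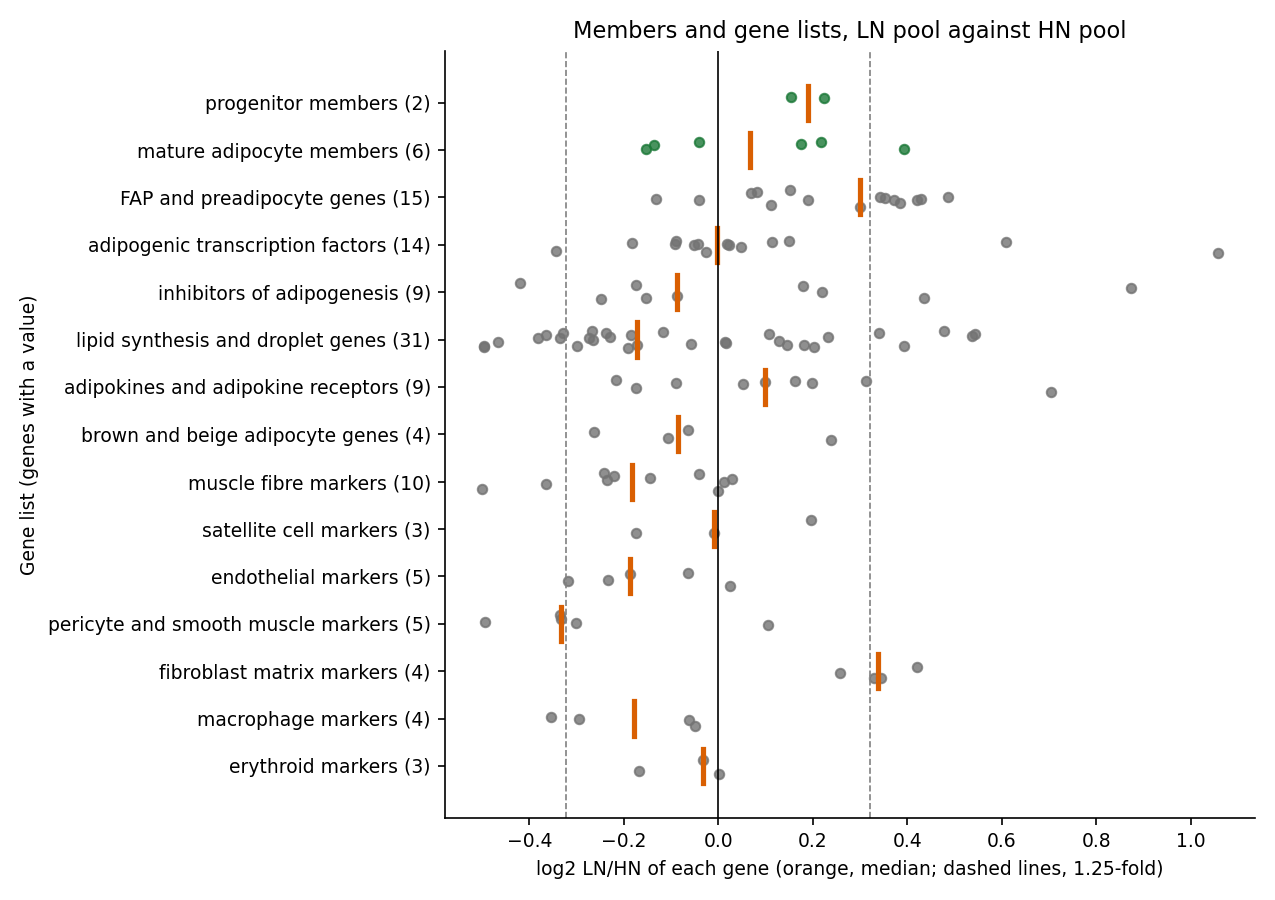
Log2 LN/HN (horizontal axis) of each gene with a value, for the members (green) and the gene lists (gray), with the number of genes in parentheses. Orange bars are medians, at 0.30 for the progenitor list and -0.17 for lipid synthesis and droplets, and the dashed lines mark the threshold.

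The array scaling did not change the direction of the 8 genes. With the 75th percentile of each array subtracted, which moved the median of all genes to -0.042, *PDGFRA* had a log2 LN/HN of 0.20 and *PPARG* of -0.17. In the log2 values as the authors normalized them, the values of the 8 genes lay between -0.14 and 0.37. After the normexp background correction, which adds an offset and so shrinks the ratios of dim probes, *PDGFRA* had a log2 LN/HN of 0.12.

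**Figure D4:**
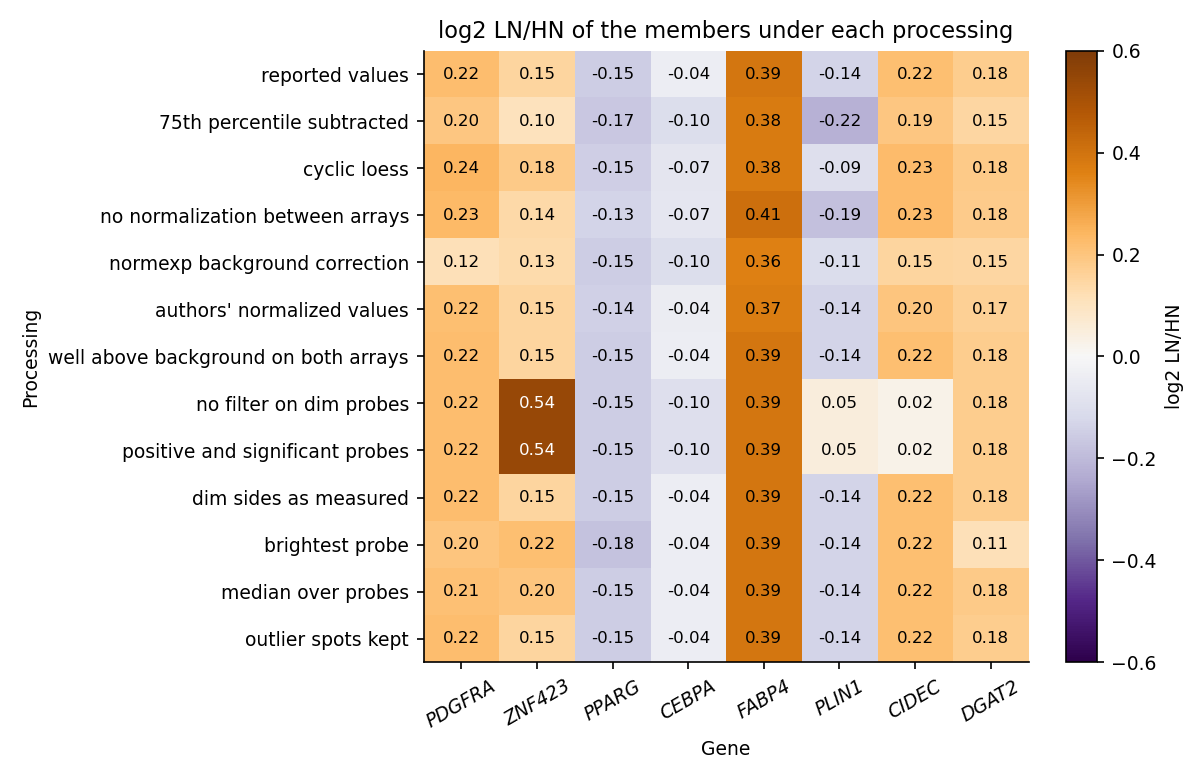
Log2 LN/HN (color and printed value) of the 8 genes (columns) as reported and under each of 12 alternative settings (rows). *FABP4* stays between 0.36 and 0.41, and *ZNF423*, *PLIN1* and *CIDEC* change most in the 2 settings that admit dim probes.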

How the data were processed

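Spot signals of 2 Agilent Bovine (v2) arrays were used. The authors deposited intensities from Feature Extraction 11.0.1.1, background-subtracted and spatially detrended, without normalization between arrays, together with flags per spot. The authors also deposited log2 values from GeneSpring GX (quantile method) for 30027 probes. Here, quantile normalization of the log2 intensities of 43803 non-control spots was done in R 4.3.3 with limma 3.58.1. Outlier-flagged spots (13) were left out and replicate spots averaged, giving 43652 probes. Detection required the software's mark for a signal well above background on 1 array or both. For a probe dim on 1 array, the dim value was replaced by the lowest marked signal of that array (log2 2.27 for HN, 2.82 for LN) unless its own was higher. No fold was given where the bright side was not above the value used for the dim side. Gene values are means over the detected probes with a fold. Later steps used Python 3.11.15, numpy 2.4.6, pandas 2.3.3 and matplotlib 3.10.9.

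The arrays had 74.5% (HN) and 70.9% (LN) of spots well above background. The SD of the log2 LN/HN between spots of a probe was 0.085 (42 probes), and the median SD between probes of a gene 0.099. The number of arrays limits the precision. Accessions were matched to symbols through the RefSeq gene table of assembly ARS-UCD2.0 (26742 probes, 12603 symbols). The array design refers to another build, so no coordinates are given, and no sequences were used here. The members and the 13 lists (136 genes) were chosen with earlier results of these data known. All members are named, and of each adipocyte list the genes past the fold threshold, at most 5, and those without a matched or detected probe. Any other named gene was chosen after its values were seen. The steps from normalized spot signals to gene values were checked on simulated arrays. The normalization, the detection marks, the lists and the alternatives were not. The 12 alternatives were 3 other scalings, the normexp correction with offset 50 (on median spot signals, chosen after seeing that the files hold no mean signals), the authors' values, 4 treatments of dim probes, 2 other summaries of a gene, and outlier spots kept.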

Additional observations from a re-analysis of the deposited data

How the results depend on the processing

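The values of the members and the medians of the lists were recomputed under 12 alternatives. So were the counts for the members, the progenitor and preadipocyte list and the lipid synthesis and droplet list. Single genes of the lists and counts of probes were not. No member probe was flagged or dim on 1 array only, so settings about such probes could not move the members. The 8 genes kept their direction in all 12 alternatives, with the exception of *PLIN1*. It turned to 0.05 without a filter on dim probes and with probes that were positive and significant against background. In both of these settings the median log2 LN/HN was 0.049 for the members, 0.38 for the progenitor genes and 0.36 for their difference from the mature genes, and 3 members were past the fold threshold, namely *FABP4*, *ZNF423* (0.54) and *LEP* (-0.69, from probes at background). Of all genes, 12.2% were then past it higher and 13.4% lower without a filter, and 13.1% and 15.9% with the positive and significant probes. The progenitor and preadipocyte list then had a median of 0.18, with 4 genes lower and 2 past it lower. Its median was 0.21 with the 75th percentile subtracted. After the normexp correction it was 0.14, with 4 genes lower and 4 past it higher, and the lipid synthesis and droplet list had a median of -0.05, with 2 genes past it higher and 1 lower. The offset of this correction shrinks ratios by construction, and 1.62% of all genes were then past it higher and 1.96% lower. Differences near the background could not be measured, which leaves *LEP* without a value. No paired analysis was possible because each group has 1 array, and for the same reason no replicate could be left out.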
